A study of Danio rerio with 9 samples.

Results

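Tetrahydrobiopterin is the pterin cofactor that the aromatic amino acid hydroxylases need to work. It is made from GTP, with GTP cyclohydrolase as the rate-limiting enzyme, and each round of hydroxylation leaves a spent form that a dehydratase and a reductase turn back into the cofactor. In liver its main known user is phenylalanine hydroxylase, which turns phenylalanine into tyrosine. Expression of 8 genes of this pathway was followed in zebrafish larval liver: gch1, gch2, pts, gchfr, pcbd1, qdpra, qdprb1 and pah. They are 8 of the 32520 genes counted, and were taken by name, with 6 symbols spelled alike in the deposited table. There pts appears as PTS (ENSDARG00000045269) and qdprb1 as qdprb.1 (ENSDARG00000037378).

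The pathway was chosen by the CPM values of gch1, which were higher with dose in these same libraries. The values of gch1 are therefore given as a description, with no test, and the other 7 genes are set beside it. Livers were microdissected from wild-type larvae that had spent 24 h in vehicle, in 1 mM metronidazole or in 10 mM metronidazole, and polyadenylated RNA was sequenced from 3 libraries of each. Metronidazole is the prodrug that bacterial nitroreductase activates in transgenic cell ablation, and these larvae are labelled wild-type, so all 3 groups bear on the drug without the enzyme. The age of the larvae and the number of animals behind a library are not stated in the labels, and p-values measure the spread between libraries, part of which may be technical.

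Total counts ranged from 29993109 to 41300673 per library. One library stood apart: on the second principal component, which held 17.4% of the variance, 1 mM replicate 3 lay at -76.8 and the others between -5.99 and 26.6. By the column names, 10 mM replicate 3 came from sequencing lane 8 and the rest from lane 7. All 13 hepatocyte markers were detected, among them the transferrin gene tfa at 31070 to 42280 CPM and the liver fatty acid binding protein gene fabp10a at 7188 to 12700 CPM. In the edgeR test 0 of the 13 passed at either dose (2 at an unadjusted p below 0.05 at 10 mM and 0 at 1 mM, and 1 and 0 by DESeq2). Of all genes tested, 17.2% were called at 10 mM and 0.984% at 1 mM. By DESeq2 3520 and 513 genes were called, beside 2878 and 165 by edgeR. No share of all genes was taken at an unadjusted p below 0.05, here or below, so those counts have no background. At 10 mM the library ranges of fga, fgb and fgg lay above vehicle and those of apobb.1 and serpina1 below. These markers are named after their values were seen, and 40.6% of all genes had ranges apart. CPM, a gene's counts per 1000000 counts of its library, is given here on library sizes scaled by TMM factors. In bulk tissue, fewer cells of a type and less RNA per cell cannot be told apart.

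Of the genes of synthesis, gch1 (ENSDARG00000070453), which encodes GTP cyclohydrolase, stood at 127, 106 and 104 CPM in the vehicle libraries. It stood at 153, 230 and 173 CPM at 1 mM and at 604, 555 and 711 CPM at 10 mM. The 3 groups did not overlap: every 1 mM library lay above every vehicle library, and every 10 mM library above every 1 mM library. The means were 112 ± 12.7, 185 ± 40.0 and 623 ± 79.8 CPM (SD, n = 3 each). That is 1.65-fold higher at 1 mM than in vehicle (log2 0.72, SE 0.17), 5.55-fold higher at 10 mM than in vehicle (log2 2.47, SE 0.18) and 3.36-fold higher at 10 mM than at 1 mM (log2 1.75, SE 0.17). Of 16766 genes tested, 162 had a larger log2 change at 10 mM against vehicle and 1262 had one at 1 mM. Without 10 mM replicate 3, the library of the other lane, the log2 change at 10 mM against vehicle was 2.37, and without 1 mM replicate 3 the change at 1 mM was 0.77.

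**Figure D1:**
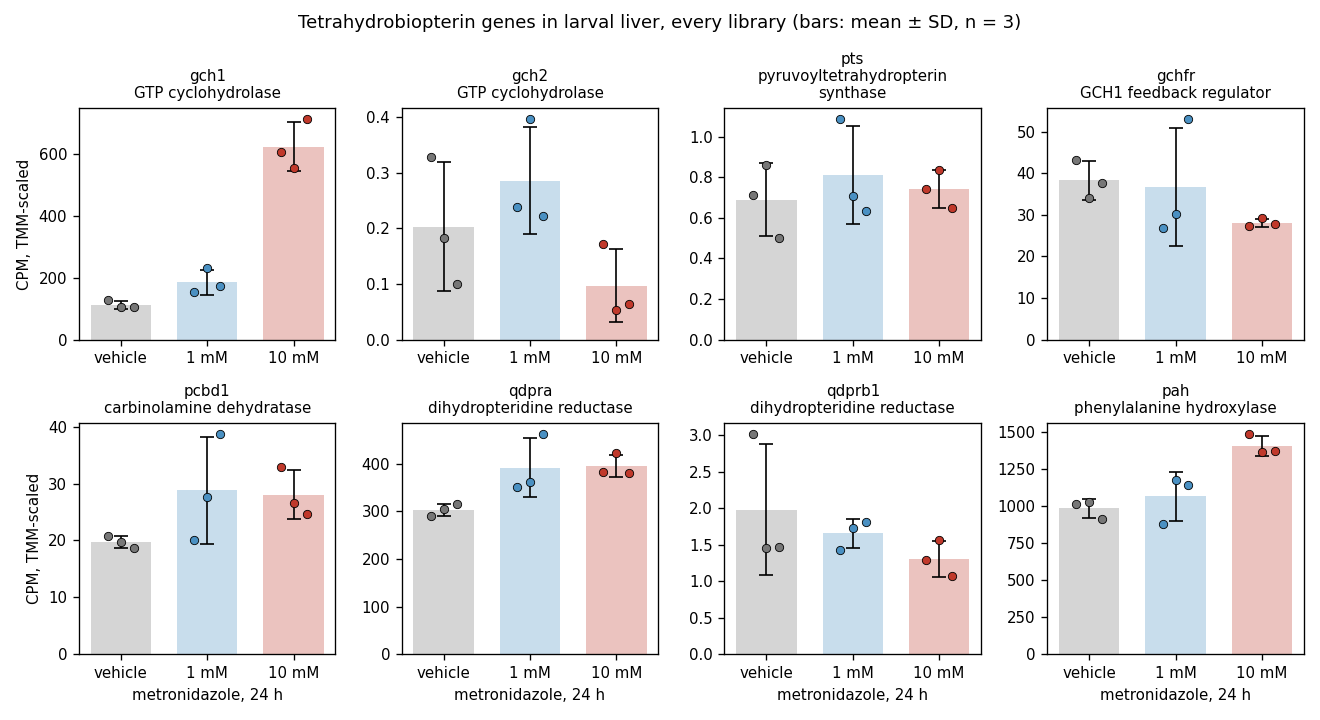
CPM on TMM-scaled library sizes of the 8 genes in every library, by treatment, with a bar for the mean of 3 libraries and an error bar for the SD; each panel has its own linear axis from 0. The 3 groups of gch1 are apart, from 104 to 127 CPM in vehicle to 555 to 711 CPM at 10 mM, pah is highest at 10 mM, and gch2, pts and qdprb1 lie near or below 3 CPM throughout.

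The second GTP cyclohydrolase gene, gch2 (ENSDARG00000099101), is known in zebrafish for its part in pigment cells, where pteridines colour the xanthophores. It was near the detection limit, with 12, 7 and 4 counts in vehicle, 9, 14 and 7 counts at 1 mM and 7, 2 and 2 counts at 10 mM. It fell short of the filter on low counts and was not tested. At this depth 3 counts correspond to 0.074 to 0.0974 CPM, so these levels are close to that floor. The vehicle libraries overlapped both treated groups, while the 10 mM libraries, at 0.173, 0.0538 and 0.0649 CPM, lay below the 1 mM libraries, at 0.238, 0.396 and 0.222 CPM, a difference that rests on a few counts. The xanthophore marker slc2a15b was at 0 in every library, and pax7a, pax7b and aox5 reached 0.518, 0.0538 and 0.398 CPM at most. The other 2 xanthophore markers listed were higher, csf1ra at 6.70 to 14.2 CPM and XDH at 315 to 731 CPM. Mammals have a single gene for GTP cyclohydrolase, and here nearly all the reads of the pair belonged to gch1.

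The next enzyme, pyruvoyltetrahydropterin synthase, is encoded by pts, which had few reads. It stood at 0.712, 0.859 and 0.498 CPM in vehicle, 1.08, 0.707 and 0.635 CPM at 1 mM and 0.740, 0.834 and 0.649 CPM at 10 mM, from 20 to 41 counts per library. The groups overlapped. At 10 mM against vehicle the log2 change was 0.11, with a 95% interval from -0.80 to 1.02 (edgeR quasi-likelihood test, adjusted p = 0.899). At this depth the interval is wide, and any change within these bounds is compatible with the counts.

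The regulator gchfr (ENSDARG00000098588) encodes the GTP cyclohydrolase feedback regulatory protein, which in mammals binds the enzyme and lets tetrahydrobiopterin inhibit it and phenylalanine stimulate it. It stood at 43.2, 34.0 and 37.6 CPM in vehicle, 26.8, 30.1 and 52.9 CPM at 1 mM and 27.2, 29.2 and 27.7 CPM at 10 mM. The 10 mM libraries lay below all vehicle libraries and close together, and the 1 mM group spanned both, with 1 mM replicate 3 the highest of the 9. The change at 10 mM against vehicle was log2 -0.45 (SE 0.21, 95% interval -0.91 to 0.0083) and did not pass the test over all genes (adjusted p = 0.174). Without 1 mM replicate 3, which enters this comparison only through the shared filter, scaling and estimate of the spread, the change was -0.44 and passed (adjusted p = 0.0110). Fitted on the 6 vehicle and 10 mM libraries alone, it passed as well (log2 -0.45, adjusted p = 0.0102). Over 17 alternatives its adjusted p ranged from 0.0102 to 0.409.

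The balance of reads between the enzyme gene and its regulator gene can be followed within each library, where library size cancels. For each read of gchfr there were 2.94, 3.11 and 2.77 reads of gch1 in vehicle and 5.71, 7.64 and 3.27 at 1 mM. At 10 mM there were 22.2, 19.01 and 25.7. The 3 groups did not overlap, and the means were 2.94 ± 0.168, 5.54 ± 2.19 and 22.3 ± 3.34. Because the ratio contains gch1, it too is a description without a test, and without transcript lengths it is not a ratio of molecules.

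**Figure D2:**
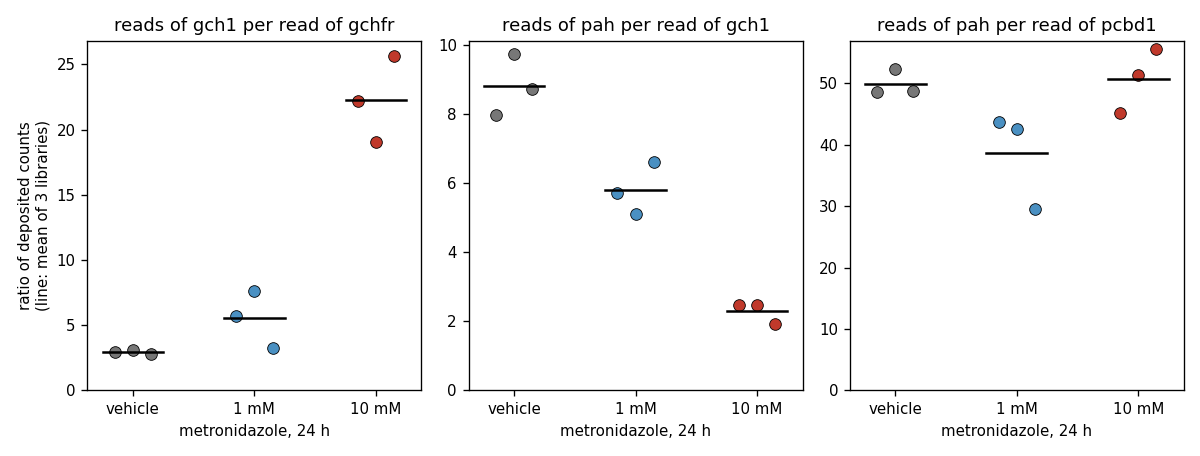
Ratio of the deposited counts of gch1 to gchfr, pah to gch1 and pah to pcbd1 in every library, by treatment, with a line for the mean of 3 libraries and linear axes from 0. The ratio of gch1 to gchfr lies between 2.77 and 3.11 in vehicle and between 19.01 and 25.7 at 10 mM, while the ratio of pah to pcbd1 has overlapping values in vehicle and at 10 mM.

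Of the recycling genes, pcbd1 (ENSDARG00000031981) encodes the carbinolamine dehydratase that takes the first step. It stood at 20.8, 19.6 and 18.6 CPM in vehicle, 20.02, 27.6 and 38.7 CPM at 1 mM and 32.9, 26.6 and 24.6 CPM at 10 mM. All 10 mM libraries lay above all vehicle libraries, and the 1 mM libraries ran from the vehicle level to the highest value of the 9. The change was log2 0.51 (SE 0.20, 95% interval 0.07 to 0.95) at 10 mM and 0.54 (SE 0.20, 95% interval 0.11 to 0.98) at 1 mM, and neither passed the test (adjusted p = 0.107 and 0.294). Without 1 mM replicate 3, the change at 10 mM was 0.52 with an adjusted p of 0.0151, and the change at 1 mM was 0.27. Over 17 alternatives the adjusted p at 10 mM ranged from 0.00940 to 0.332.

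The reductase of the second step is encoded by qdpra (ENSDARG00000040190), dihydropteridine reductase. It stood at 291, 304 and 315 CPM in vehicle, 350, 362 and 463 CPM at 1 mM and 383, 422 and 382 CPM at 10 mM. Every treated library lay above every vehicle library, and the treated groups overlapped each other. The change was log2 0.37 (SE 0.14, 95% interval 0.07 to 0.67) at 1 mM and 0.38 (SE 0.14, 95% interval 0.08 to 0.68) at 10 mM. Neither passed the test over all genes (adjusted p = 0.303 and 0.0788). At 10 mM the adjusted p ranged from 0.00994 to 0.223 over 17 alternatives, and it was below 0.05 with the DESeq2 test (0.0269), with the 6 libraries alone (0.0123) and without 1 mM replicate 3 (0.00994). Between the 2 doses the log2 difference was 0.014, with a 95% interval from -0.29 to 0.31.

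Its paralogue qdprb1 was low, at 3.01, 1.46 and 1.47 CPM in vehicle, 1.43, 1.73 and 1.81 CPM at 1 mM and 1.28, 1.56 and 1.07 CPM at 10 mM. The groups overlapped, and vehicle replicate 1 was the highest of the 9. At 10 mM against vehicle the log2 change was -0.59 (SE 0.34, 95% interval -1.325 to 0.14, adjusted p = 0.267), and it was -0.16 without vehicle replicate 1. The table holds a further pair of reductase rows, QDPR (ENSDARG00000086859) and qdprb.4 (ENSDARG00000090822), with 0 counts in every library. For gchfr, pcbd1 and qdpra alike, 1 mM replicate 3, the library that stood apart, held the highest value of the 9, and its part in the 1 mM values of these genes was not tested beyond leaving it out.

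The user of the cofactor, pah (ENSDARG00000020143), encodes phenylalanine hydroxylase, the first and rate-limiting enzyme of phenylalanine breakdown. It stood at 1012, 1029 and 909 CPM in vehicle, 876, 1175 and 1143 CPM at 1 mM and 1485, 1366 and 1372 CPM at 10 mM. The 10 mM libraries lay above all the others, and the vehicle and 1 mM libraries overlapped. It rose 1.43-fold at 10 mM against vehicle, from 983 ± 64.8 to 1408 ± 67.2 CPM (log2 0.52, SE 0.15, 95% interval 0.20 to 0.84, edgeR adjusted p = 0.0285). At 1 mM the log2 change was 0.11 (95% interval -0.20 to 0.43, adjusted p = 0.829), and between the doses it was 0.40 (95% interval 0.08 to 0.72, adjusted p = 0.0767). An F test over the 3 groups in the same fit gave an adjusted p of 0.0462, where 19.6% of all genes passed.

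The call of pah at 10 mM was not stable. It was lost without any vehicle library (adjusted p = 0.0798, 0.0765 and 0.123 without replicates 1, 2 and 3) and without 10 mM replicate 1 (0.111) or 3 (0.0613). The log2 change itself stayed between 0.46 and 0.55 over 17 alternatives, and the adjusted p ranged from 0.00196 to 0.123.

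Over the pathway, 1 of the 6 tested genes other than gch1 rose at 10 mM against vehicle, pah, and 0 fell. Of all genes tested, 17.2% were called in that comparison, 9.74% higher and 7.43% lower, so 1 in 6 is near the background. The library ranges of 4 of the 6 were apart, higher for pcbd1, qdpra and pah and lower for gchfr, where 40.6% of all tested genes had ranges apart (20.2% higher and 20.4% lower). The median log2 change of the 6 was 0.24 and the mean 0.079, beside a median of -0.026 over all genes. The count of called genes was 4, namely pah, pcbd1, qdpra and gchfr, both with the 6 vehicle and 10 mM libraries alone and without 1 mM replicate 3, and 0 without any single vehicle library or without 10 mM replicate 1 or 3. Calls over all genes moved the same way, from 2878 to 4102 with the 6 libraries alone and 4066 without 1 mM replicate 3. They were 1854 to 1988 in the settings where the count was 0.

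At 1 mM against vehicle, 0 of the 6 passed in edgeR (2 at an unadjusted p below 0.05, pcbd1 and qdpra, and 0 in DESeq2), with 0.984% of all genes called (0.889% higher and 0.0954% lower). Only the ranges of qdpra, which were higher, were apart among the 6, beside 17.7% of all genes (9.66% higher and 8.03% lower). At 10 mM against 1 mM, 0 of the 6 passed in edgeR (1 at an unadjusted p below 0.05, and 1 in DESeq2, pah), with 18.8% of all genes called (9.39% higher and 9.41% lower). The ranges of pah alone among the 6 were apart, and higher, beside 33.7% of all genes (16.5% higher and 17.1% lower). The 3 comparisons share libraries in pairs, so they are not independent of each other.

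**Figure D3:**
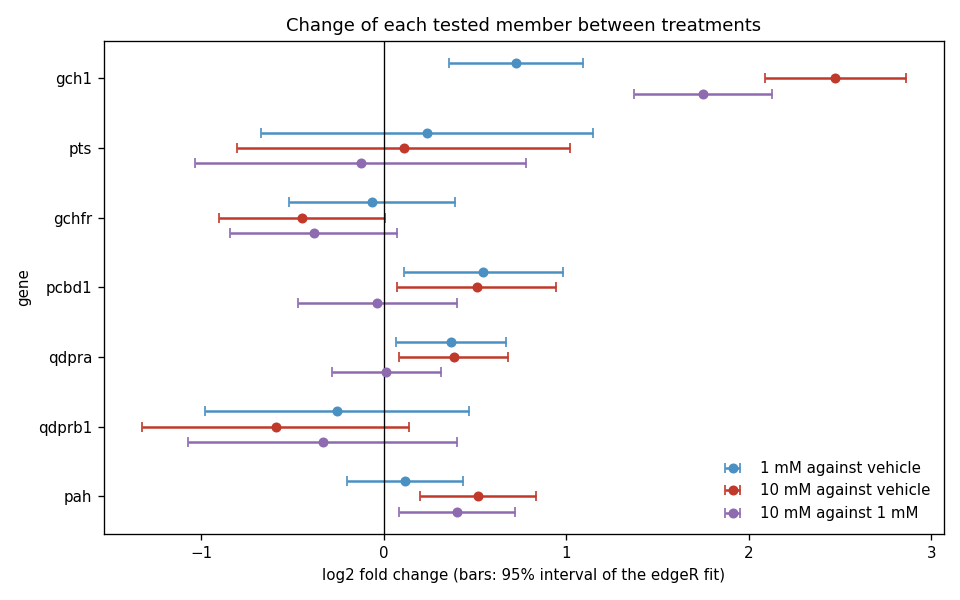
Log2 fold change of gch1 and the 6 other tested genes in each of the 3 comparisons, with bars for the 95% interval of the edgeR fit to all 9 libraries; gch1 is shown as a description. At 10 mM against vehicle gch1, which was chosen for its rise with dose, is at 2.47. In that comparison the highest upper bound of the other genes is 1.02, for pts. The bars of pts and qdprb1 are the widest.

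Set against gch1, pah had fewer reads per read of gch1 at each dose, 8.81 ± 0.885 in vehicle, 5.81 ± 0.754 at 1 mM and 2.28 ± 0.306 at 10 mM (SD, n = 3 each). These groups did not overlap, but the ratio contains gch1, which was chosen for its rise with dose. It is therefore a description without a test. The reads of pah per read of pcbd1 were 48.6, 52.4 and 48.8 in vehicle, 43.8, 42.5 and 29.5 at 1 mM and 45.2, 51.3 and 55.7 at 10 mM. Vehicle and 10 mM libraries overlapped in this ratio of the hydroxylase to the dehydratase that restores its cofactor, and the 1 mM libraries lay below both, furthest in replicate 3.

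The lists of neighbouring genes that follow are read against the same background, 17.2% of all genes called at 10 mM and 0.984% at 1 mM. They were chosen with earlier results of these data known, so this background is a reference and not a test of a list. Counts by DESeq2 stand beside 3520 genes called at 10 mM and 513 at 1 mM. Counts at an unadjusted p below 0.05 have no background. Among 9 further genes listed for synthesis and recycling, 6 were in the table and 5 were tested. At 10 mM 1 fell and 0 rose: cbr1, a carbonyl reductase of a family that can stand in for sepiapterin reductase in mammals. It went from 13.5, 14.2 and 9.61 CPM in vehicle to 5.03, 6.08 and 3.83 CPM at 10 mM (log2 -1.31, SE 0.22, adjusted p = 0.00125), with no overlap. Sepiapterin reductase itself makes the last step of synthesis, and its gene spra was chosen for mention after its values were seen. It stood at 8.43, 9.11 and 7.47 CPM in vehicle, 5.77, 6.99 and 6.16 CPM at 1 mM and 9.92, 9.66 and 9.80 CPM at 10 mM. It was lowest at 1 mM and highest at 10 mM, and only the difference between the doses passed (log2 0.64, SE 0.15, adjusted p = 0.0113, against 0.333 and 0.303 for 10 mM and 1 mM against vehicle).

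Dihydrofolate reductase, which can restore the cofactor from its oxidized form in mammals, is encoded by dhfr, also mentioned after its values were seen. It stood at 7.78, 7.68 and 8.17 CPM in vehicle, 11.9, 11.6 and 18.5 CPM at 1 mM and 9.55, 10.9 and 10.0 CPM at 10 mM. The groups did not overlap, and the order was vehicle, 10 mM, 1 mM. At 1 mM the change was log2 0.83 (SE 0.18), just short of the threshold (adjusted p = 0.0522, range 0.00419 to 0.236 over 17 alternatives), and at 10 mM it was 0.37 (SE 0.18, adjusted p = 0.198). The remaining 2, cbr1l and the hydroxylase co-chaperone gene dnajc12, are named to complete the list. Opposite to cbr1, cbr1l averaged 77.6 CPM in vehicle and 105 CPM at 10 mM, with ranges apart (log2 0.44, SE 0.215). It did not pass (adjusted p = 0.191), nor did dnajc12 (log2 -0.44, adjusted p = 0.463). At 1 mM 0 of the 5 passed in edgeR, with 2 at an unadjusted p below 0.05 and 1 in DESeq2.

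Other oxygenases that use tetrahydrobiopterin are the tyrosine and tryptophan hydroxylases, the nitric oxide synthases and the ether lipid enzyme encoded by agmo. Of 9 listed, 4 passed the filter on low counts. At 10 mM 1 rose and 0 fell: th2, the second tyrosine hydroxylase gene of zebrafish. It stood at 2.68, 3.51 and 1.87 CPM in vehicle, 3.07, 3.93 and 5.43 CPM at 1 mM and 9.92, 5.76 and 6.98 CPM at 10 mM (log2 1.49, SE 0.29, adjusted p = 0.00340 at 10 mM against vehicle). Summed levels of 5 neuron markers were 1.01 to 1.30 CPM in vehicle, 1.21 to 1.92 CPM at 1 mM and 1.53 to 2.29 CPM at 10 mM, the last above all vehicle libraries, and their part in the value of th2 was not tested. Of the 5, snap25b alone passed, higher at 10 mM (0.631 against 1.86 CPM, log2 1.56, SE 0.39, adjusted p = 0.0147). The others did not follow it: syt1a averaged 0.412 CPM in vehicle and 0.0649 CPM at 10 mM (adjusted p = 0.102), snap25a 0.102 and 0.0560 CPM, and elavl3 and elavl4 reached 0.0635 and 0.149 CPM at most. The other 3 oxygenases are named because all 4 passed between the doses. Of these, agmo stood at 197 ± 1.66, 219 ± 17.8 and 170 ± 7.90 CPM in the 3 groups in order of dose, nos1 at 0.956 ± 0.152, 2.14 ± 0.287 and 0.618 ± 0.338 CPM and tph2 at 0.597 ± 0.337, 0.228 ± 0.0485 and 0.955 ± 0.327 CPM. At 10 mM 0 of these 3 passed against vehicle, with 0 at an unadjusted p below 0.05 and 0 in DESeq2, and at 1 mM 0 of the 4 oxygenases passed in edgeR, with 2 at an unadjusted p below 0.05 and 0 in DESeq2. All 4 tested oxygenases passed between the doses, where 18.8% of all genes did, nos1 and agmo lower and th2 and tph2 higher at 10 mM than at 1 mM, with th2 at an adjusted p of 0.0495 and agmo at 0.0464. The calls of nos1 and tph2 rest on few reads. For nos1 there were 88, 64 and 72 counts at 1 mM and 10, 26 and 28 at 10 mM. For tph2 there were 8, 10 and 6 counts at 1 mM and 54, 28 and 24 at 10 mM. Of the 4 calls that of nos1 alone held with each library left out in turn.

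Downstream of pah, 6 listed genes take tyrosine to fumarate and acetoacetate, and all 6 were tested. At 10 mM 1 rose and 0 fell. The gene that rose was tat, tyrosine aminotransferase, the first step of tyrosine breakdown. It stood at 1898, 1854 and 1766 CPM in vehicle, 1635, 2136 and 2169 CPM at 1 mM and 3551, 2806 and 3646 CPM at 10 mM (log2 0.86, SE 0.16, adjusted p = 0.00275 at 10 mM against vehicle). Its 10 mM libraries lay above all the others, as those of pah did. The other 5, named to complete the list, were hpda, hpdb, hgd, gstz1 and fah, and had log2 changes from -2.33 (hpdb, below 1 CPM) to 0.22 at 10 mM, and the list's median was 0.054. At 1 mM 0 of the 6 passed in edgeR, 0 had an unadjusted p below 0.05 and 0 passed in DESeq2.

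**Figure D4:**
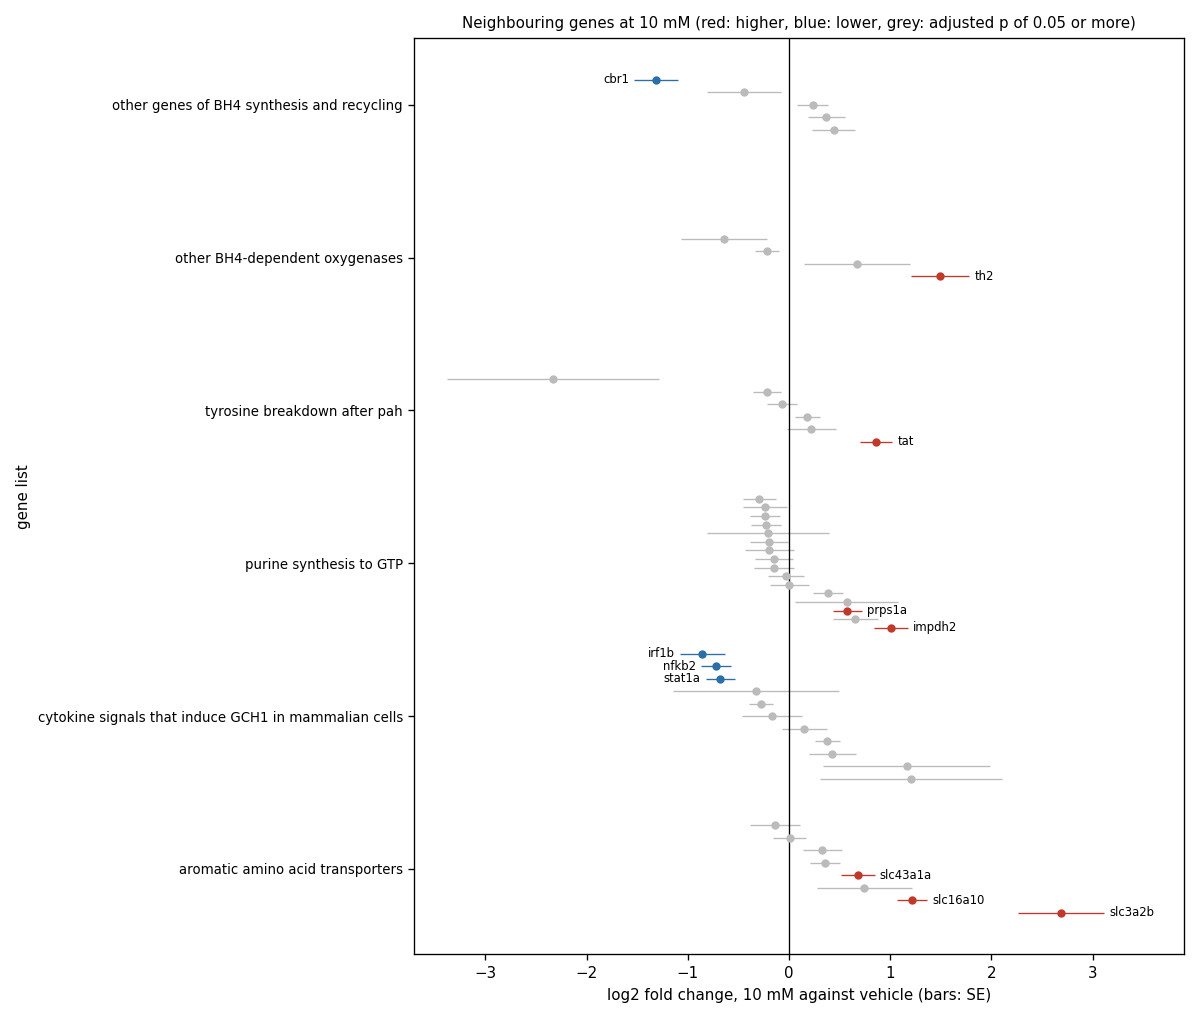
Log2 fold change at 10 mM against vehicle of the tested genes of 6 lists around the pathway, with bars for the SE; genes that passed the edgeR test are coloured and named. Within each list 1 to 3 genes passed, with cbr1, irf1b, nfkb2 and stat1a lower and th2, tat, prps1a, impdh2, slc43a1a, slc16a10 and slc3a2b higher.

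Aromatic amino acids enter cells through a small set of carriers, of which 13 were listed, 10 matched and 8 were tested. At 10 mM 3 rose and 0 fell, with a median log2 change of 0.52. The gene slc16a10, which encodes a transporter of aromatic amino acids, stood at 120, 107 and 85.5 CPM in vehicle, 99.7, 115 and 118 CPM at 1 mM and 260, 222 and 245 CPM at 10 mM (log2 1.22, SE 0.15, adjusted p = 0.000144 at 10 mM). All 10 mM libraries lay above all the others, which overlapped. The heavy chain gene slc3a2b rose as well (log2 2.69, SE 0.43, adjusted p = 0.000895), as did slc43a1a (log2 0.68, SE 0.17, adjusted p = 0.0140). Levels of slc3a2b were 2.41, 3.64 and 3.54 CPM in vehicle, 4.13, 11.9 and 15.4 CPM at 1 mM and 23.8, 11.5 and 26.7 CPM at 10 mM. For both genes every 1 mM library already lay above every vehicle library, and the treated groups overlapped. The call of slc43a1a was lost when vehicle replicate 1, vehicle replicate 2, 10 mM replicate 1 or 10 mM replicate 3 was left out (adjusted p up to 0.0639). Of the genes that did not rise, slc3a2a and slc7a5 are named after their values were seen. The other listed heavy chain gene, slc3a2a, stood at 16.8, 13.0 and 11.5 CPM in vehicle and 15.1, 13.9 and 12.4 CPM at 10 mM, which overlap. The carrier gene slc7a5 reached 0.148 CPM at most. At 1 mM 0 of the 8 passed in edgeR, 2 had an unadjusted p below 0.05 and 1 passed in DESeq2.

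GTP, the starting material, comes from purine synthesis. Of 16 tested genes of that route 2 rose at 10 mM and 0 fell, a share near the 9.74% of all genes that were called higher, with a median log2 change of -0.15. They were impdh2, which commits inosine monophosphate to guanine nucleotides (log2 1.00, SE 0.17, adjusted p = 0.00131), and prps1a, which supplies the ribose donor (log2 0.58, SE 0.14, adjusted p = 0.0152). The level of impdh2 was 11.5 ± 1.63 CPM in vehicle, 10.4 ± 2.01 at 1 mM and 23.0 ± 2.05 at 10 mM, so that the 10 mM group alone was high. Its paralogue impdh1b, named after its values were seen, averaged 24.1, 35.7 and 20.4 CPM in the same order. It did not pass at 10 mM against vehicle (log2 -0.24, adjusted p = 0.327) and was lower at 10 mM than at 1 mM (log2 -0.80, adjusted p = 0.00298). The call of prps1a was lost when vehicle replicate 2 or 10 mM replicate 2 was left out (adjusted p up to 0.0856). At 1 mM 0 of the 16 passed in edgeR, with 4 at an unadjusted p below 0.05 and 1 in DESeq2.

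In mammalian cells GCH1 is known to be induced by interferon gamma and other cytokines. Of 11 tested genes listed for those signals, 3 fell at 10 mM and 0 rose, with a median log2 change of -0.17. They were the transcription factor genes stat1a (log2 -0.68, SE 0.15, adjusted p = 0.00654), irf1b (log2 -0.86, SE 0.22, adjusted p = 0.0179) and nfkb2 (log2 -0.72, SE 0.15, adjusted p = 0.00442). The cytokine genes il1b and tnfb, named after their values were seen, averaged 0.221 and 0.182 CPM in vehicle and 0.516 and 0.415 CPM at 10 mM, log2 changes of 1.20 and 1.16 that did not pass (adjusted p = 0.413 and 0.384). Named likewise, the interferon gamma gene ifng1 had 0 counts in every library, and tnfa had 4 counts in 1 mM replicate 2 alone. Neither was tested. The kinase gene jak2a, also named after its values were seen, averaged 27.9 CPM in vehicle and 36.3 CPM at 10 mM (log2 0.38, SE 0.13, adjusted p = 0.0549). Of the 11, 5 had an unadjusted p below 0.05 at 10 mM and 4 passed in DESeq2. The call of irf1b was lost when vehicle replicate 2, vehicle replicate 3 or 10 mM replicate 1 was left out (adjusted p up to 0.0811). At 1 mM 0 of the 11 passed in edgeR, 1 had an unadjusted p below 0.05 and 0 passed in DESeq2. That gene was irf1b, which at 1 mM was higher, at 7.55 against 4.85 CPM in vehicle (log2 0.64, SE 0.21, adjusted p = 0.229). The median log2 change of the list at 1 mM was 0.23, opposite in sign to that at 10 mM.

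The genes whose log2 CPM over the 9 libraries was most like that of gch1 were txnrd3, ptbp1b, tbp, ABCB10, hspa4a, acsl4a, sult3st2 and jun, with Pearson r from 0.986 to 0.995. The points share 3 treatment groups, so r mostly follows the order of the group means. The thioredoxin reductase gene txnrd3 averaged 254, 325 and 606 CPM in vehicle, at 1 mM and at 10 mM, and the chaperone gene hspa4a 3.31, 6.69 and 31.0 CPM. In each of the 8 the mean at 1 mM lay between the other means. The 8 most like pah were azin1b, plekhm1, lman2lb, slc25a38a, slc25a16, ttc27, rrs1 and sec23b, with r from 0.972 to 0.991. With 1 library left out, 2 to 7 of the 8 were named again for either gene, so the lists hold only for these 9 libraries.

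Markers of 13 other cell types were followed as summed levels in the same libraries, and between vehicle and 10 mM the ranges of 5 of these sums did not overlap. Of all genes tested, 40.6% had ranges apart in that comparison, so 5 of 13 is near that share. The sum of 5 biliary markers was higher at 10 mM, 1650 to 1742 against 1355 to 1414 CPM, and most of it came from krt18a.1 and anxa4. Of these, krt18a.1 averaged 809 CPM in vehicle and 1090 CPM at 10 mM. The ranges of anxa4 overlapped, at 539 and 563 CPM on average, and none of the 5 biliary markers passed. The neuron sum given above and that of 8 melanophore markers, 0.568 to 0.714 against 0.364 to 0.498 CPM, were higher too. Of the melanophore markers 6 averaged below 0.1 CPM. The range of pmela was higher, averaging 0.112 CPM in vehicle and 0.370 CPM at 10 mM, and that of OCA2 was lower. Like ltk below, pmela could pass the filter on low counts through treated libraries only. Its edgeR adjusted p of 0.1565 is therefore a description. The sum of 8 endothelial markers was lower, 235 to 239 against 241 to 252 CPM, but its members went both ways. The ranges of tie1 and stab1 were lower and those of kdrl and lyve1b higher, and none of the 8 passed. The sum of 6 xanthophore markers was lower as well, 325 to 360 against 689 to 741 CPM, and nearly all of it was XDH, the xanthine dehydrogenase gene, which liver expresses too (log2 -1.08, SE 0.15, adjusted p = 0.000417).

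The other 8 sums overlapped between vehicle and 10 mM, among them 13 exocrine pancreas markers at 8542 to 18410 and 9859 to 20670 CPM and 8 erythrocyte markers at 1044 to 1362 and 1022 to 1379 CPM. At 1 mM all 13 sums overlapped vehicle, with wider ranges for some, up to 2204 CPM for the biliary, 2224 CPM for the erythrocyte and 35.7 CPM for the neutrophil markers, which stood at 3.88 to 10.2 CPM in vehicle. Of all genes tested, 17.7% had ranges apart at 1 mM against vehicle. Beside XDH and snap25b, 2 single markers passed at 10 mM against vehicle, both higher. They were 1 of 7 tested fibroblast and stellate markers and 1 of 2 tested iridophore markers, where 17.2% of all genes were called. The fibroblast and stellate marker pdgfrb averaged 10.2 CPM in vehicle and 16.5 CPM at 10 mM (log2 0.70, SE 0.22, adjusted p = 0.0439). The iridophore marker ltk was at 0 in every vehicle library and averaged 0.366 CPM at 10 mM (log2 6.75, SE 1.31). It could pass the filter on low counts through treated libraries only. Its edgeR call (adjusted p = 0.00501) is therefore a description and not a test of the difference. The part of these differences in the values of gch1 and pah was not tested.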

How the data were processed

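Per the labels, RNA was purified from microdissected livers and enriched for poly A. Per the submitters' processing notes, the authors used HISAT2 and featureCounts on GRCz11; the tools' versions, the annotation release, strandedness and the treatment of multimapping reads were not stated there or in the labels. The authors deposited raw counts per gene for 32520 genes in 9 libraries (29993109 to 41300673 counts each). Of counts from 1 to 20, 75.2 to 82.9% were even, beside 48.7 to 51% of high counts. The cause was not tested.

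Libraries were grouped by labelled treatment. In edgeR (version 4.0.16, R 4.3.3), filterByExpr (minimum count 10, minimum total 15) kept 16766 genes. One quasi-likelihood fit with TMM scaling and a mean per group used all 9 libraries. Each pair of groups was tested two-sided with Benjamini-Hochberg adjustment over all genes and a threshold of 0.05. SE is the log2 change divided by the square root of F, and 95% intervals use the fit's t quantile. The alternatives were DESeq2 (version 1.42.0) or its size factors, other filters, 6 libraries, a replicate block, halved counts, no mitochondrial or 20 most abundant genes, and each library left out. The procedure was tested on simulated counts. Whether replicate numbers pair the libraries is not stated in the labels.

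The members and lists were chosen with earlier results of these data known. Of 174 listed genes, 159 matched 1 gene each; case was ignored. Named genes were the 8 members, list genes that passed against vehicle, and the 8 genes most correlated with gch1 and with pah (prior count 2, mean of at least 1 CPM); others are marked. A further planned gene list is not reported here. Pteridine levels, sequences, gene positions and transcript lengths were not analysed here, so levels are not compared between genes, and reads shared by paralogues could not be separated.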

Additional observations from a re-analysis of the deposited data

How the results depend on the processing

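Over 17 alternatives the 300 values for the 6 tested genes other than gch1 kept direction and side of the threshold in 269, with 11 gaining and 6 losing a call and 14 changing sign; all 14 were changes that had not passed. The log2 change of gch1 stayed within 2.37 to 2.57 at 10 mM and 0.54 to 0.84 at 1 mM against vehicle. The number of genes other than gch1 called at 10 mM against vehicle, 1, became 2 with the DESeq2 test, 2 with no count filter, 4 with the 6 libraries alone and 0 with the replicate block, and 0 to 4 with 1 library left out. At 10 mM against 1 mM, 0 became 1 with the DESeq2 test, and 0 to 1 with 1 library left out. Whether replicate numbers pair the libraries was not settled: deviations of same-numbered libraries from their group means correlated at -0.111 to 0.0565. Between vehicle and 10 mM the values were 0.0565, 0.0402 and 0.0439 for the same number and -0.0367 to -0.0126 for different numbers. Deviations within a group cancel, so positive values for the same number entail negative ones among different numbers, and this contrast is built in. Correlations this weak cannot exclude pairing. With the block, pah at 10 mM against vehicle had an adjusted p of 0.0579; among the listed genes th2 and agmo lost their calls between the doses.

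Of all genes, 2878 were called at 10 mM against vehicle (1854 to 4066 with 1 library left out) and 3153 at 10 mM against 1 mM (1963 to 3902). With the DESeq2 test these became 3520 and 3725. At 10 mM against vehicle there were 3059 with no count filter, 4102 with the 6 libraries alone and 2455 with the replicate block. At 1 mM against vehicle 165 were called, 513 with the DESeq2 test, 487 with no count filter, 96 with at least 5 CPM in 3 libraries, 109 with the replicate block, 103 with the 6 libraries alone and 21 to 202 with 1 library left out. The cause of these shifts was not tested.

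With 1 library left out, log2 changes that changed sign ranged as follows. At 10 mM against vehicle pts ranged from -0.082 to 0.30. At 1 mM against vehicle pts ranged from -0.045 to 0.42, gchfr from -0.43 to 0.11, qdprb1 from -0.43 to 0.18, dnajc12 from -0.25 to 0.42 and cbr1l from -0.18 to 0.27. At 10 mM against 1 mM pts ranged from -0.26 to 0.15, pcbd1 from -0.23 to 0.25 and qdpra from -0.051 to 0.17, and qdpra was -0.032 with at least 5 CPM in 3 libraries. Depth limits gch2 and pts most, and qdprb1 and pts have no value with the filter of 5 CPM.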
